A study of Mus musculus with 2 samples.

Results

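The genes described here are 8 RNA-binding regulators of the germline, *Dazl*, *Boll*, *Dnd1*, *Cpeb1*, *Elavl2*, *Pum2*, *Ythdc2* and *Meioc*, which were picked by gene symbol. All 8 were found among the 39695 entries of each deposited table, and all 8 were among the 14831 genes whose mean level over both libraries was at least 1 RPKM (reads per kilobase of gene per 1000000 reads of the library). RNA of whole testes from 9-day-old (P9) mice was sequenced in 2 libraries, 1 from control mice and 1 from Bcas2F/-;Vasa-Cre mice (the mutant). BCAS2 is a component of a spliceosome-associated complex, and the mutant carries 1 floxed and 1 deleted *Bcas2* allele together with a Cre driven by the *Vasa* (*Ddx4*) promoter, which is active in germ cells. The labels describe the other library only as control. In the study's crosses the controls had the floxed and the deleted allele without Cre, so both groups then lack 1 *Bcas2* allele in every cell. The strain is labelled C57BL/6, while the study's methods describe a mixed background, and the number of mice behind each library is not given in the sources used here. Since each genotype has a single library, no difference below could be set against a spread between animals, and none carries a p-value. The intervals below cover counting error only.

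Proteins of this kind bind messenger RNAs, mostly in their 3′ untranslated regions (3′UTRs), and set whether the RNAs are stored, translated, lengthened at the poly(A) tail or destroyed. In the male germline they act at successive steps, from survival of primordial germ cells through the spermatogonial stages to entry into meiosis, when much of the control lies after transcription. P9 testes hold spermatogonia and the earliest meiotic cells beside the somatic Sertoli, Leydig and peritubular cells.

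*Bcas2* itself was at 39.5 RPKM in the control and 25.7 RPKM in the mutant library, a log2 ratio of −0.60 (mutant over control, each RPKM raised by 1, the scale of every log2 ratio below unless stated). Cre acts only in germ cells while the RNA came from whole testes. The steps between the deposited values give 19918750 and 19331687 as the read totals that the RPKM values were divided by in the control and the mutant library. These are the depths behind the values and not the numbers of reads sequenced.

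*Elavl2* and *Meioc* were lower in the mutant library by more than 1.5-fold, *Dazl* was lower by a smaller amount, *Pum2* was slightly higher, and the counting intervals of *Boll*, *Dnd1*, *Cpeb1* and *Ythdc2* held 0. Of the 8 genes 2 were past 1.5-fold lower and 0 were past 1.5-fold higher, where 1.69% and 1.57% of the 14831 genes were. The counting interval of the ratio lay below 0 for 3 of the 8 and above 0 for 1, where it did so for 17.5% and 19.9% of all genes. Without the added 1 the same 2 of the 8 were past 1.5-fold lower and 0 higher, beside 3.3% and 3.34% of all genes. Among the 10663 genes with a mean of at least 5 RPKM, which include the 8, the shares were 0.975% lower, 0.431% higher, 20.8% with an interval below 0 and 23.5% with one above 0. The median log2 ratio of the 8 was −0.05, against 0.02 over all genes, with 4 values below 0 and 4 above, and it was 0.05 without *Elavl2* and *Meioc*. Their summed level was 337 RPKM in the control and 293 RPKM in the mutant library.

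**Figure D1:**
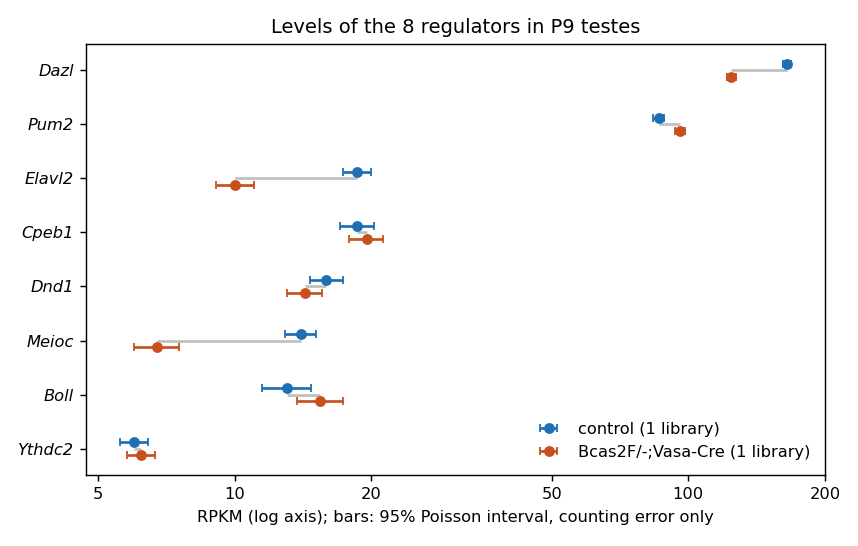
Level of each regulator (RPKM, log axis) in the control library (blue) and the Bcas2F/-;Vasa-Cre library (orange), with 95% Poisson intervals for counting error. The 2 libraries stand clearly apart for *Dazl*, *Elavl2* and *Meioc*, and their intervals overlap for *Boll*, *Dnd1*, *Cpeb1* and *Ythdc2*.

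In the control library the levels spanned 27.5-fold. *Dazl* was highest and *Pum2* was next. *Elavl2*, *Cpeb1*, *Dnd1*, *Meioc* and *Boll* followed between 18.6 and 13.0 RPKM, each with an interval that overlapped its neighbour's, and *Ythdc2* was lowest. In the mutant library the span was 20.1-fold and the order was *Dazl*, *Pum2*, *Cpeb1*, *Boll*, *Dnd1*, *Elavl2*, *Meioc* and *Ythdc2*. Here only *Boll* and *Dnd1*, and *Meioc* and *Ythdc2*, were neighbours whose intervals overlapped. *Elavl2* went from rank 3 to rank 6. Spans and ranks depend on the gene length behind each RPKM value. With the mean length of its annotated transcripts (GENCODE M21), *Ythdc2* would be at 11.8 RPKM in the mutant library. That is above *Elavl2* (10.02 RPKM) and *Meioc* (6.75 RPKM). *Dazl* would then be at 335 RPKM in the control and 252 RPKM in the mutant library and stay highest.

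*Dazl* encodes an RNA-binding protein of the DAZ family that keeps many germ cell messenger RNAs translated and is needed for germ cell development in both sexes. It lies on the minus strand of chr17:50279395-50293636 (GRCm38, GENCODE M21). It was at 165 RPKM in the control (9674 reads, 95% Poisson interval 162 to 168) and at 125 RPKM in the mutant library (7081 reads, 122 to 127). The control library was the higher one and the intervals were far apart. The level fell by 24.6%, a log2 ratio of −0.40, and without the added 1 the log2 ratio was −0.41 with a 95% Clopper-Pearson interval from −0.45 to −0.36. In all, 4.11% of the 14831 genes had a ratio at or below that of *Dazl*. Among the 433 genes within 1.25-fold of its mean level this share was 2.77%, and the SD of their log2 ratios was 0.161. The difference in *Dazl* was thus one of the larger ones among abundant genes while staying within 1.5-fold. By real-time RT-PCR with replicates at the same age, the study reported *Dazl* mRNA as similar in both genotypes.

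The RPKM values of *Dazl* are for the whole gene. Exon 8 of *Dazl*, whose inclusion the study examined, is printed here because a gene-level value does not separate the form with it from the form without it. It lies at chr17:50284996-50285046 on the minus strand, within the coding part of transcript Dazl-201, and its 51 bases, a whole number of codons (17), make up 1.71% of the 2976 bases of that transcript. The annotated transcript Dazl-202 joins exon 7 directly to exon 9.
Exon 8: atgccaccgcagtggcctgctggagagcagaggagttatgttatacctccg

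The 3′UTR of *Dazl* (1854 bases in transcript Dazl-204) held 5 copies of TTTTAT, the core of the cytoplasmic polyadenylation element bound by CPEB1, where the median 3′UTR within 1.25-fold of its length held 1 and 76.0% held at least 1. It held 1 copy of TTTGTTT, a DAZL-type sequence present in 53.7% of those 3′UTRs, and 0 copies of the Pumilio sequence TGTANATA, present in 32.1%. Motifs were searched in the letters of the transcript strand. They do not overlap in the examples below, which show 1 polyadenylation element at chr17:50281119-50281140 and the DAZL-type sequence at chr17:50280530-50280552, both on the minus strand, with the motif in capitals.
Polyadenylation element: ttgcatagTTTTATgttaaact
DAZL-type sequence: ggtataatTTTGTTTaaagaatc

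*Boll*, the member of the DAZ family most widely conserved among animals, acts later, in meiotic and post-meiotic male germ cells. It lies on the minus strand of chr1:55248658-55363469. *Boll* was at 13.0 RPKM in the control (253 reads, 11.5 to 14.7) and at 15.4 RPKM in the mutant library (291 reads, 13.7 to 17.3). The mutant value was 18.5% higher, the largest rise of the 8, but the 2 intervals overlapped. Its log2 ratio was 0.23, and the ratio without the added 1 was 0.25 with an interval from −0.0030 to 0.49. The values of *Boll* also allow gene lengths that are longer than the 975 bases used. With the longest (2925 bases, 759 and 873 reads) the interval was 0.10 to 0.39, above 0, so whether the difference exceeds its counting error depends on that length.

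DND1 protects germline messenger RNAs and is needed for the survival of primordial germ cells. *Dnd1* was at 15.9 RPKM in the control (562 reads, 14.6 to 17.3) and at 14.3 RPKM in the mutant library (489 reads, 13.0 to 15.6). Its log2 ratio was −0.15, and the interval of the ratio without the added 1, −0.34 to 0.02, held 0. The 3′ end of *Dnd1* (chr18:36763671-36766214, minus strand) overlaps exons of *Wdr55* on the other strand by 140 bases, and reads there may belong to either gene.

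CPEB1 binds the cytoplasmic polyadenylation element and controls poly(A) tail length and translation in germ cells, with synaptonemal complex messenger RNAs among its known targets. *Cpeb1* (chr7:81347026-81455465, minus strand) was at 18.6 RPKM in the control (522 reads, 17.04 to 20.3) and at 19.5 RPKM in the mutant library (532 reads, 17.9 to 21.3). The values lay within each other's intervals. The log2 ratio was 0.07, with an interval from −0.11 to 0.25 without the added 1, so a fall as large as that of *Dazl* lay outside the counting error.

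*Elavl2* encodes HuB, a member of the Hu family that binds AU-rich sequences and stabilises messenger RNAs, and is expressed in neurons and gonads. It lies on the minus strand of chr4:91250763-91400785. *Elavl2* was at 18.6 RPKM in the control (791 reads, 17.4 to 19.97) and at 10.02 RPKM in the mutant library (413 reads, 9.08 to 11.0). The mutant level was 1.86-fold lower and the intervals did not overlap. The log2 ratio was −0.83, and −0.89 without the added 1, with an interval from −1.07 to −0.72. Of the 14831 genes 88 (0.593%) had a ratio at or below it, and of the 4652 genes at a mean of 5 to 20 RPKM 25 did. Its close relative *Elavl1* (HuR), which is expressed in most cells, was at 19.8 RPKM in the control and 20.03 RPKM in the mutant library. The *Elavl2* to *Elavl1* ratio of RPKM values was therefore 0.938 in the control and 0.5003 in the mutant library. *Elavl3* and *Elavl4*, the other neuronal members of the family, had a mean below 1 RPKM. *Elavl3* was at 0.519 RPKM in the control (52 reads) and 0.185 RPKM in the mutant library (18 reads). Its log2 ratio without the added 1 was −1.49 (−2.35 to −0.69), below 0 like that of *Elavl2*. *Elavl4* went the other way, at 0.314 RPKM in the control (16 reads) and 0.404 RPKM in the mutant library (20 reads). Its log2 ratio without the added 1 was 0.37, with an interval from −0.66 to 1.41 that held 0.

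PUM2, a Pumilio protein, represses messenger RNAs that hold TGTANATA in the 3′UTR and works with NANOS proteins in the germline. *Pum2* (chr12:8674134-8752581, plus strand) was at 86.0 RPKM in the control (4878 reads, 83.6 to 88.4) and at 95.9 RPKM in the mutant library (5280 reads, 93.3 to 98.5). The mutant library was higher by 11.5%, with a log2 ratio of 0.16 and an interval from 0.10 to 0.21 without the added 1. The difference was small but larger than its counting error.

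The Pumilio sequence was present in the 3′UTRs of *Elavl2*, *Pum2*, *Cpeb1* and *Ythdc2* and in none of the other 4 regulators. *Elavl2* had 3 copies in 2477 bases (transcript Elavl2-204), where 40.0% of 3′UTRs of similar length held any, and *Pum2* had 2 copies in 2861 bases (Pum2-216), where 43.9% did. *Cpeb1* had 1 copy in 1315 bases (24.8%), and *Ythdc2* had 4 in 1936 bases (33.3%). Genes with the sequence included the lower *Elavl2* and the higher *Pum2*, and whether it bears on their levels was not tested. *Elavl2* also held 7 copies of TTTTAT, against a median of 2, and 3 copies of the AU-rich TATTTAT, which 47.6% of similar 3′UTRs held, and these sequences can share bases where they meet. *Meioc* had 0 Pumilio and 0 DAZL-type sequences in 1498 bases, and 1 copy each of TTTTAT and TATTTAT. The Pumilio sites of *Elavl2*, *Pum2* and *Cpeb1* are printed with the motif in capitals, as examples of the sequence. In the order printed they lie at chr4:91251945-91251968, chr4:91251737-91251760 and chr4:91251072-91251095 (minus strand), chr12:8750157-8750180 and chr12:8750410-8750433 (plus strand), and chr7:81347546-81347569 (minus strand).
Elavl2 first site: ttgtgtgaTGTAAATAagaccttg
Elavl2 middle site: attctgtcTGTAGATAgtctagct
Elavl2 last site: aaaatacaTGTATATAtttaaaaa
Pum2 first site: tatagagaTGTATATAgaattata
Pum2 last site: tacagaatTGTATATActtataat
Cpeb1 site: gcagctgcTGTATATAgttttaaa

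YTHDC2 and MEIOC are partners. YTHDC2 is an RNA helicase that can bind N6-methyladenosine (m6A), a mark on messenger RNA, and MEIOC binds it and is needed with it for germ cells to leave the mitotic programme and go through meiotic prophase. *Ythdc2* (chr18:44827746-44889724, plus strand) was at 6.00 RPKM in the control (753 reads, 5.58 to 6.45) and at 6.21 RPKM in the mutant library (756 reads, 5.77 to 6.67). Each value lay within the other's interval. The log2 ratio was 0.04 and the interval without the added 1 was −0.099 to 0.20.

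*Meioc* (chr11:102663716-102682237, plus strand) was at 13.97 RPKM in the control (644 reads, 12.9 to 15.1) and at 6.75 RPKM in the mutant library (302 reads, 6.01 to 7.55). This was the largest difference of the 8. The mutant level was 2.07-fold lower, a log2 ratio of −0.95, and −1.05 without the added 1, with an interval from −1.25 to −0.85. Of the 14831 genes 65 (0.438%) were at or below this ratio, and 19 of the 4652 at a mean of 5 to 20 RPKM. The partners therefore stood in a different proportion in the 2 libraries, *Meioc* to *Ythdc2* being 2.33 in the control and 1.09 in the mutant library on the RPKM scale. The size of that proportion depends on the gene length behind each RPKM value, which for *Ythdc2* was 6299 bases by the steps of the values and 3316.5 bases as the mean of its GENCODE transcripts, but the change between libraries does not.

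**Figure D2:**
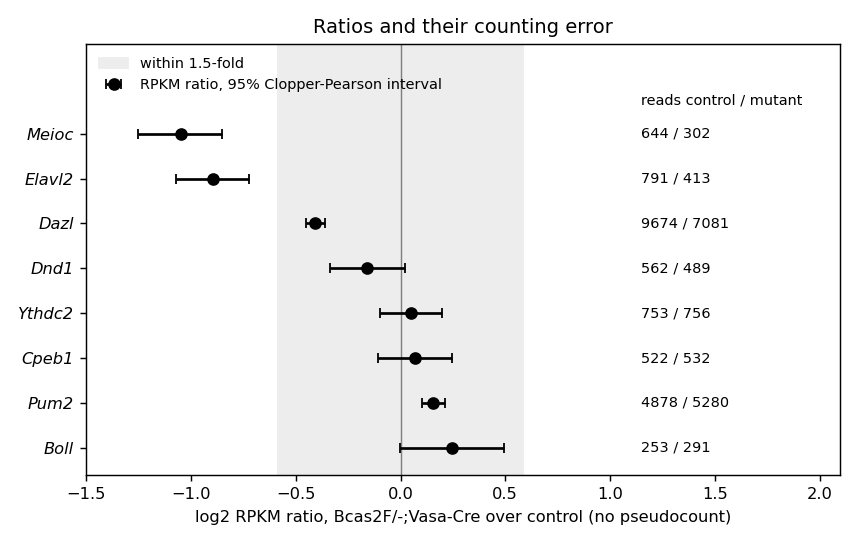
Log2 ratio of RPKM values without a pseudocount, mutant over control, for each regulator, with its 95% Clopper-Pearson interval for counting error and the reads in each library. Grey marks the range within 1.5-fold. The points of *Meioc* and *Elavl2* lie below it, the intervals of *Dazl* and *Pum2* lie inside it on either side of 0, and those of the other 4 genes hold 0.

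**Figure D3:**
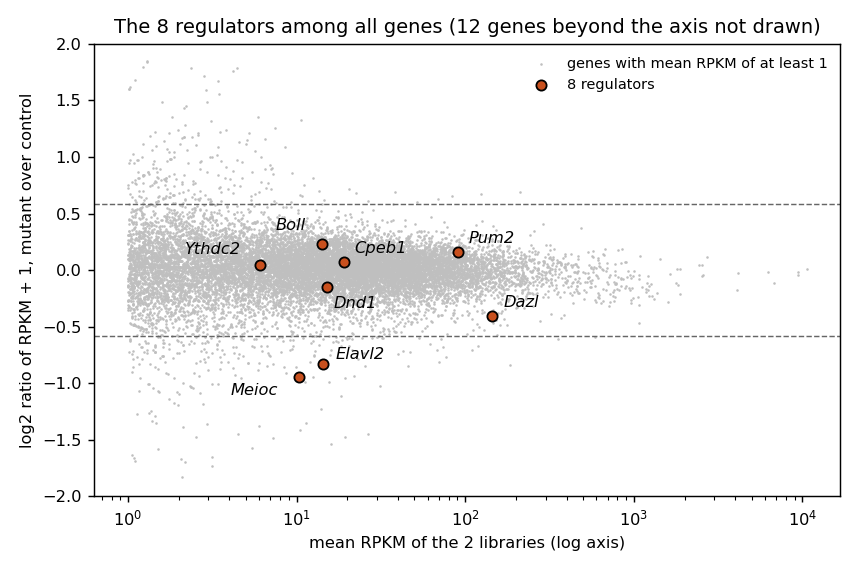
Log2 ratio of RPKM + 1 (mutant over control) against the mean RPKM of both libraries (log axis), with genes of mean RPKM of at least 1 in grey (12 beyond the axis are not drawn), the 8 regulators in orange, and dashed lines at 1.5-fold. *Meioc* and *Elavl2* lie below the lower line, *Dazl* lies near the lower edge of the genes at its level, and the other 5 lie within the cloud.

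The promoters of the 2 regulators past 1.5-fold were read from RefSeq (GRCm38.p6, the 300 bases around an annotated start). Windows were read for 6 of the 8 genes, with 14 start sites in all. *Dnd1* and *Ythdc2* were left out of this search, so the counts below do not cover them. CACGTG, an E-box, and GCGGGA, a core of E2F-type sequences, were searched on both strands. At the first listed start GCGGGA was present in 3 of the 6 genes and in 5410 of the 27025 genes of the table, and CACGTG in 2 of the 6 and in 1957 of the 27025 (7.24%). The number of CpG dinucleotides ran from 10 to 37 in the 6, against a median of 7 over all genes. *Meioc* had 1 copy of GCGGGA and 0 of CACGTG at its single start site. *Elavl2* had 6 listed starts, and 3 of them, which overlap, held the same copy of GCGGGA while 0 held CACGTG. The *Meioc* window is chr11:102665335-102665634 on the plus strand and the *Elavl2* window, 1 of the 3, is chr4:91372020-91372319 on the minus strand, with GCGGGA in capitals.
Meioc promoter: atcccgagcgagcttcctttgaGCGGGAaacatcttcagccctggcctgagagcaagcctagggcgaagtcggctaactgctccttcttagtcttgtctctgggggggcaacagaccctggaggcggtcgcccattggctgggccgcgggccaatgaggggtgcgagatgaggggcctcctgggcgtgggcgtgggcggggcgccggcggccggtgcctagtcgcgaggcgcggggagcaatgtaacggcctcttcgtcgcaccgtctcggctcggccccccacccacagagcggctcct
Elavl2 promoter: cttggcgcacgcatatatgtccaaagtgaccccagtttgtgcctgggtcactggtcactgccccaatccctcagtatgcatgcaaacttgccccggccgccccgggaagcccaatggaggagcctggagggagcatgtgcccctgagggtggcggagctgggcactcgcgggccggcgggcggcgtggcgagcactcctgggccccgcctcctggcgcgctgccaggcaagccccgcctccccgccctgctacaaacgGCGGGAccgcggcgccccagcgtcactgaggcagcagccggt

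Other genes of the same pathways were read from lists. Across 5 lists of paralogs, other germline RNA-binding proteins, m6A enzymes, deadenylation and decay factors, and cytoplasmic polyadenylation factors, 56 of 58 genes had a mean of at least 1 RPKM. Of these 3 were past 1.5-fold lower and 0 were past 1.5-fold higher, where 1.69% and 1.57% of all genes were, and the median log2 ratio was −0.02. Without the added 1 there were 4 lower and 1 higher (7.14% and 1.79% of the 56, against 3.3% and 3.34% of all genes), with *Igf2bp3* (3.89 and 2.57 RPKM) joining the lower and *Nanos2* the only higher. The 3 were all in the list of other germline RNA-binding proteins. *Nanos3*, a partner of Pumilio proteins in germ cells, was at 15.2 RPKM in the control and 7.16 RPKM in the mutant library (log2 ratio −0.99). *Adad1*, which encodes a testis protein with a double-stranded-RNA-binding domain, was at 11.6 and 5.71 RPKM (−0.91). *Rbm44* was at 11.9 and 7.09 RPKM (−0.67).

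Within that list of 19 genes the median log2 ratio was −0.15, with intervals below 0 for 9, above 0 for 4 and holding 0 for 6, where 17.5% of all genes lay below and 19.9% above. *Rbm46*, whose protein also works with MEIOC and YTHDC2, was at 34.4 and 26.0 RPKM (−0.39). *Nanos2*, a repressor kept in spermatogonial stem cells, was at only 1.01 and 1.83 RPKM (0.49), which without the added 1 is 1.81-fold higher. *Msi1*, the most abundant of the list, was at 120 and 121 RPKM (0.0038).

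The 9 paralogs with a mean of at least 1 RPKM had a median of 0.16 and ran from −0.13 (*Ythdf1*, a cytoplasmic m6A reader) to 0.22 (*Ythdf3*, another). The 8 m6A writers and erasers had a median of 0.05, between *Alkbh5*, a demethylase (−0.23), and *Zc3h13*, of the writer complex (0.17), and *Wtap*, the most abundant, was at 0.02. The 11 genes of the CCR4-NOT deadenylase and the exonuclease *Xrn1* had a median of 0.04, between *Cnot10* (−0.37) and *Cnot6* (0.18), with *Cnot7*, the most abundant, at 0.14. *Xrn1*, whose product binds YTHDC2, was at 7.96 and 8.42 RPKM. The 9 polyadenylation genes had a median of −0.06, between *Cpsf1* (−0.28) and *Tent2*, a cytoplasmic poly(A) polymerase (0.15), with *Pabpc1*, the poly(A)-binding protein gene and the most abundant, at −0.18. In none of these 4 lists was a gene with a mean of at least 1 RPKM past 1.5-fold. Of all genes 1.69% were past it lower and 1.57% higher, and at such shares lists of this size would hold few or none. *Elavl3*, below that mean, was not counted.

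**Figure D4:**
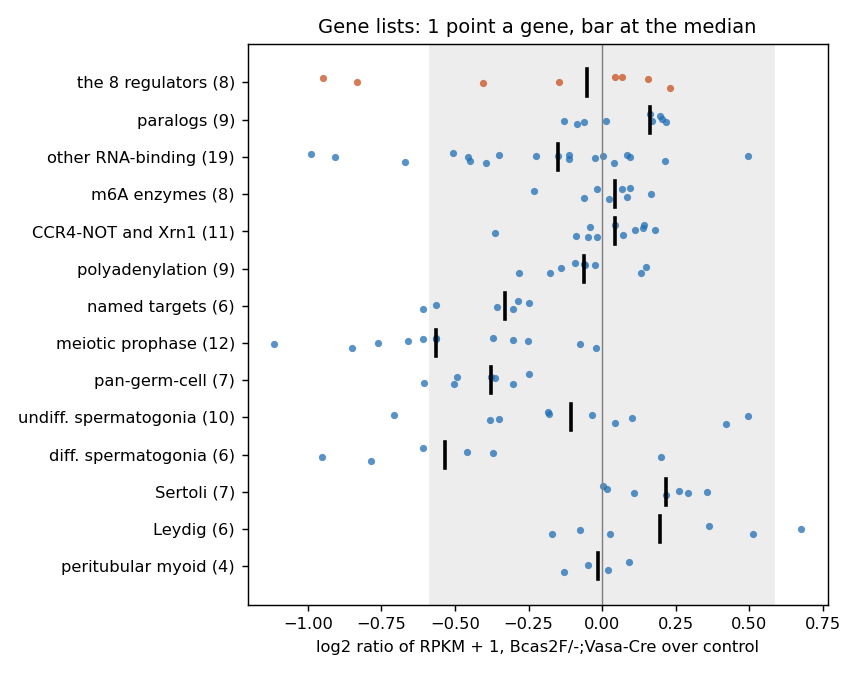
Log2 ratio of RPKM + 1 (mutant over control) for each gene with a mean RPKM of at least 1, by list, with the number of genes in brackets, a black bar at the median and grey for the range within 1.5-fold. The 8 regulators spread from −0.95 to 0.23, the medians of the meiotic, pan-germ-cell and differentiating lists lie below 0, and the Sertoli and Leydig medians lie above 0.

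Messenger RNAs described as targets of these proteins were lower in the mutant library where their level allowed a ratio. Of 7 listed targets 6 had a mean of at least 1 RPKM. All 6 had intervals below 0, where 17.5% of all genes did, and the median log2 ratio was −0.33. Of the 6, 1 was past 1.5-fold lower (2 without the added 1, *Sycp1* joining *Stra8*). Of all genes 1.69% were (3.3% without the added 1). The 6 were *Stra8*, which starts meiosis (87.2 and 56.8 RPKM, −0.61), *Sycp1* and *Sycp3*, of the synaptonemal complex (−0.56 and −0.30), *Ccna2*, a mitotic cyclin (−0.36), *Tex19.1* (−0.28) and *Ddx4*, the *Vasa* gene (−0.25). *Crisp2*, a target of later stages, was listed at 0 in the control and at 0.0736 RPKM in the mutant library. Several of these genes also stand in the marker lists that follow, so the lists do not give separate counts. Whether the targets differed because of the regulators was not tested.

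Each list of germ cell markers had a median log2 ratio below 0, and *Dazl*, *Elavl2* and *Meioc* were lower, while Sertoli and Leydig medians were above 0. Some markers of spermatogonia were higher in the mutant library. All 7 pan-germ-cell markers had intervals below 0 and a summed level of 368 RPKM in the control and 278 RPKM in the mutant library, with a median log2 ratio of −0.38 that ran from *Tdrd9* (−0.60) to *Ddx4* (−0.25), and *Mael*, the most abundant, was at −0.50. The ratio of *Dazl* (−0.40) lay within that range and those of *Elavl2* (−0.83) and *Meioc* (−0.95) lay below it. The ratios of all 3 lay within the range of the meiotic prophase genes (−1.11 to −0.02). They also lay within the ranges of the differentiating markers (−0.95 to 0.20) and of the other germline RNA-binding genes (−0.99 to 0.49). The 6 markers of differentiating spermatogonia summed to 247 and 173 RPKM, with 5 intervals below 0 and 1 above. Among them *Rhox13* (−0.95), *Dmrtb1* (−0.79) and *Stra8* were past 1.5-fold lower and *Sohlh2* was at 0.20. All 12 meiotic prophase genes had ratios below 0 and 5 were past 1.5-fold lower, led by the cohesin gene *Smc1b* (−1.11), with *Tex11* (−0.85), *Prdm9* (−0.76), *Meiosin* (−0.66) and *Stra8*, while *Spo11* was at −0.02. Without the added 1 the number past 1.5-fold lower was 7. Of all genes 1.69% were past 1.5-fold lower and 1.57% higher (3.3% and 3.34% without the added 1). Intervals lay below 0 for 17.5% of all genes and above 0 for 19.9%. By real-time RT-PCR with replicates at the same age, the study reported similar *Stra8*, *Ddx4*, *Kit*, *Sohlh1*, *Sohlh2* and *Nanos2* mRNA in both genotypes. It reported lower *Sycp1*, *Sycp3*, *Dmc1* and *Smc1b* mRNA in the mutant. Of the genes it reported as similar, *Stra8*, *Ddx4*, *Kit* (−0.37) and *Sohlh1* (−0.46) had intervals below 0 here. Those of *Sohlh2* and *Nanos2* lay above 0. The 10 markers of undifferentiated spermatogonia summed to 182 and 146 RPKM, with a median of −0.11. Of their intervals 5 lay below 0, 2 lay above 0 and 3 held 0. Their ratios ran from *Sall4* (−0.71), the 1 past 1.5-fold, to *Nanos2* (0.49). Without the added 1 *Nanos2* and *Lhx1* (1.39 and 2.20 RPKM) were also past 1.5-fold, both higher, and *Lin28a*, the most abundant, was at −0.35.

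Of 8 Sertoli markers 7 had a mean of at least 1 RPKM and *Rhox5* was listed at 0 in both libraries. The 7 summed to 691 and 775 RPKM with a median of 0.22, from *Fshr* (0.0044) to *Amh* (0.36), with *Cldn11* the most abundant at 0.02. The 6 Leydig markers summed to 387 and 431 RPKM with a median of 0.20, and *Cyp17a1* (0.68) was past 1.5-fold higher while *Hsd3b1*, the most abundant, was lowest at −0.17. Medians were −0.01 for 4 peritubular myoid markers (*Acta2* −0.13, *Cnn1* 0.09), −0.16 for 4 macrophage markers (*Csf1r* −0.23, *Mrc1* 0.10) and −0.10 for 4 endothelial markers (*Tek* −0.22, *Kdr* 0.08, *Cdh5* −0.06), with none past 1.5-fold. The 6 blood genes had a median of −1.51, with 5 intervals below 0 and 1 above, where 17.5% and 19.9% of all genes had them. *S100a8* (−2.64), *S100a9* (−2.95) and *Slc4a1* (−3.38) were past 1.5-fold lower. *Alas2* (−0.38) and *Hba-a1* (−0.26) were lower by less and *Hbb-bs* was at 0.11. Of all genes 1.69% were past 1.5-fold lower and 1.57% higher. *Elavl2* is also a neuronal gene, and of 5 neuronal markers 3 had a mean of at least 1 RPKM, from *Rbfox3* (−0.24) to *Tubb3* (0.22), with none past 1.5-fold. *Tubb3* was the only marker of the 5 well above 1 RPKM. Below that mean, *Snap25* (4 and 18 reads) had a log2 ratio without the added 1 of 2.21 (0.61 to 4.24). *Stmn2* (27 and 21 reads) was at −0.32 on that scale, with an interval that held 0. The study reported that histology did not tell the genotypes apart at P9. At later ages its counts of basal germ cells and undifferentiated spermatogonia did not differ significantly, while germ cells in the tubule centre were lost. In RNA of whole testes fewer cells of a type and less RNA per cell cannot be told apart, and the part of these markers in the differences of *Dazl*, *Elavl2* and *Meioc* was not tested.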

How the data were processed

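The authors aligned cleaned paired-end reads to mm10 with TopHat2 2.0.9, used HTSeq for the counts of each gene and deposited them as RPKM, in 1 table for each library. Members and lists were chosen with earlier results of these data known. Log2 ratios were computed from RPKM + 1, and a gene was called past 1.5-fold among those with a mean of at least 1 RPKM, so that ratios of low genes are understated. Reads behind each value were recovered from the steps between RPKM values: of 22040 genes above 0 in both libraries, 98.9% gave whole reads with a whole gene length to within 0.02 bases (or the rounding of the printed values where larger), and the recovered reads summed to 100.6% and 100.5% of the library sizes. Where several lengths were possible, the one nearest the mean transcript length in GENCODE M21 was taken, and a longer one would narrow the interval. Intervals are 95% Poisson for a level and 95% Clopper-Pearson for a ratio. Reads are not independent molecules, so both cover counting error only.

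Entries were matched to GENCODE M21 by Ensembl identifier (37692 of 39695, 95.0%). Motifs were counted in the 3′UTR of 1 coding transcript per gene. The genes named are the 8 regulators, *Bcas2* and, from each list, the most abundant, lowest and highest gene and each gene past 1.5-fold. *Elavl1*, *Elavl3*, *Elavl4*, *Rbm46*, *Igf2bp3*, *Lhx1*, *Xrn1*, *Rhox5* and the known targets were named beyond that rule, after their values were seen. So were *Kit*, *Sohlh1*, *Dmc1*, *Hba-a1*, *Alas2*, *Snap25* and *Stmn2*. Software versions were matplotlib 3.10.9, scipy 1.17.1, numpy 2.4.6 and pandas 2.3.3 under Python 3.11.15.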

Additional observations from a re-analysis of the deposited data

How the results depend on the processing

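The ratios of the 8 regulators were computed under 5 other settings, with a pseudocount of 0.1, of 0.01 or none, with each ratio centred on the median gene, and with RPKM rescaled to the same sum in each library. All 40 of these values kept the sign of the reported ratio, but this is no test of the signs. A pseudocount cannot change a sign. The shifts by centring (0.015) and rescaling (0.028) were smaller than the smallest ratio (0.04, *Ythdc2*). *Meioc* ran from −1.05 to −0.96, *Elavl2* from −0.89 to −0.83 and *Dazl* from −0.42 to −0.38, and 2 regulators were past 1.5-fold lower and 0 higher under each setting that was counted. With 99% intervals, or with the smallest number of reads that the values allow, an alternative chosen after seeing the data that touched only *Pum2* (interval 0.08 to 0.24), 3 intervals still lay below 0 and 1 above. With the largest number of reads that fits the annotated exons, also chosen after seeing the data, 3 lay below 0 and 2 above, *Boll* being the second. The median of the 8 changed sign, from −0.05 to 0.05, without *Elavl2* and *Meioc*, an alternative also chosen after seeing the data, as were the counts without the added 1. The shares of all genes past 1.5-fold moved more. They were 3.08% lower and 3.06% higher with a pseudocount of 0.1, 3.27% and 3.31% with 0.01, and 0.975% and 0.431% among genes of at least 5 RPKM, while rescaling to a sum of 1000000 gave 2.69% higher. No paired analysis was possible because each genotype has 1 library, and for the same reason no library could be left out. The spread between animals is unknown, so a ratio outside its counting interval may still lie within it. Gene-level values do not separate transcript forms.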
